A study of Mus musculus with 48 samples.

Results

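Synaptotagmins are membrane proteins with tandem C2 domains that link calcium entry to the fusion of vesicles with the plasma membrane. Transcripts of 10 family members, Syt1, Syt2, Syt3, Syt4, Syt5, Syt6, Syt7, Syt11, Syt13 and Syt17, were followed here. They were picked by name, as the genes whose Ensembl identifiers carry these symbols in the GENCODE annotation of GRCm38, out of 48526 genes counted. RNA came from the cortex of 12 wild-type male C57BL/6JRj mice, with 4 mice aged 3 weeks, 4 aged 5 months and 4 aged 18 months (per the labels of the samples the middle group was 6 months old, but 5 months is given in the protocol text, and the oldest mice may have been up to a month older). From each mouse, total homogenate (TH) and synaptosomes (SYN), which are pinched-off nerve terminals with attached postsynaptic membrane collected from a sucrose gradient, were each sequenced as input RNA and as the RNA that sedimented with ribosomes through a sucrose cushion (SC). This gave 48 libraries in the fractions input_TH, SC_TH, input_SYN and SC_SYN, with 4 mice per fraction and age and 1780267 to 18590040 counts per library. Every member had at least 10 counts in all 48 libraries and passed the filter on low counts in all comparisons, so that all 10 were tested throughout.

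In nerve terminals, Syt1 and its close relatives Syt2 and Syt5 sit on synaptic vesicles and act as calcium sensors of fast release, and in cortex Syt2 is known from the terminals of parvalbumin interneurons. Syt3, Syt6 and Syt7 bind calcium with higher affinity and serve slower or plasma membrane steps. Syt4 and Syt11 carry a substitution that removes calcium binding from their first C2 domain, and Syt13 and Syt17 do not bind calcium in the classical way. Syt17, also called B/K protein, lacks the transmembrane segment of the others. The names of Syt5 and Syt9 are swapped in part of the literature, so Syt5 here means the gene ENSMUSG00000004961.

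The samples showed neuronal RNA throughout, since all 5 neuronal markers (Snap25, Rbfox3, Syn1, Slc17a7 and Camk2a) exceeded 1 CPM on average in each of the 12 groups. Nuclear RNAs were depleted from synaptosomes. The sum of Malat1, Meg3, Neat1 and Snhg11 averaged 18970 CPM in input_TH and 2512 CPM in input_SYN at 5 months. RNA of other cells was nevertheless present in SYN. The summed level of 5 astrocyte markers averaged 3953 CPM in input_TH and 12010 CPM in input_SYN at 5 months. Defining endothelial markers were near 0 there (Cldn5, Pecam1 and Flt1 together 5.31 CPM against 133.4 in input_TH). In such bulk fractions, fewer cells of a type and less RNA per cell cannot be told apart. The 4 libraries of each group correlated closely, with a lowest median Pearson r to the other 3 of 0.955 on log2 CPM.

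Compared per length of merged exons, Syt1 and Syt11 were the most abundant members in each of the 12 groups. Each made up between 25.5% and 37.9% of the summed level of the family per kb, their ranges over the 4 mice overlapped each other everywhere, and neither overlapped the third member. In input_TH at 5 months the level of Syt1 was 122.8 ± 12.5 CPM per kb (SD, n = 4) and that of Syt11 was 107.1 ± 6.15 CPM per kb. They were followed by Syt13 at 51.4 ± 5.64 and Syt7 at 45.2 ± 3.37 CPM per kb, 2 genes whose ranges overlapped, and then by Syt5, Syt4, Syt3, Syt2, Syt17 and Syt6, none of which overlapped its neighbour in that order. The order was partly different in SC_SYN at 5 months. Syt11 reached 455.6 ± 41.5 CPM per kb and Syt1 reached 410.2 ± 59.2 CPM per kb. There Syt5 had moved up to the third place, at 183.7 ± 26.1 CPM per kb, above Syt13 at 137.3 ± 13.9. The lowest members changed places between compartments. Syt6 was the lowest in all 6 TH groups (4.14 to 5.11 CPM per kb), whereas Syt17 was the lowest in all 6 SYN groups (3.25 to 3.51 CPM per kb), with ranges that overlapped those of its neighbour in 3 TH and 3 SYN groups.

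**Figure D1:**
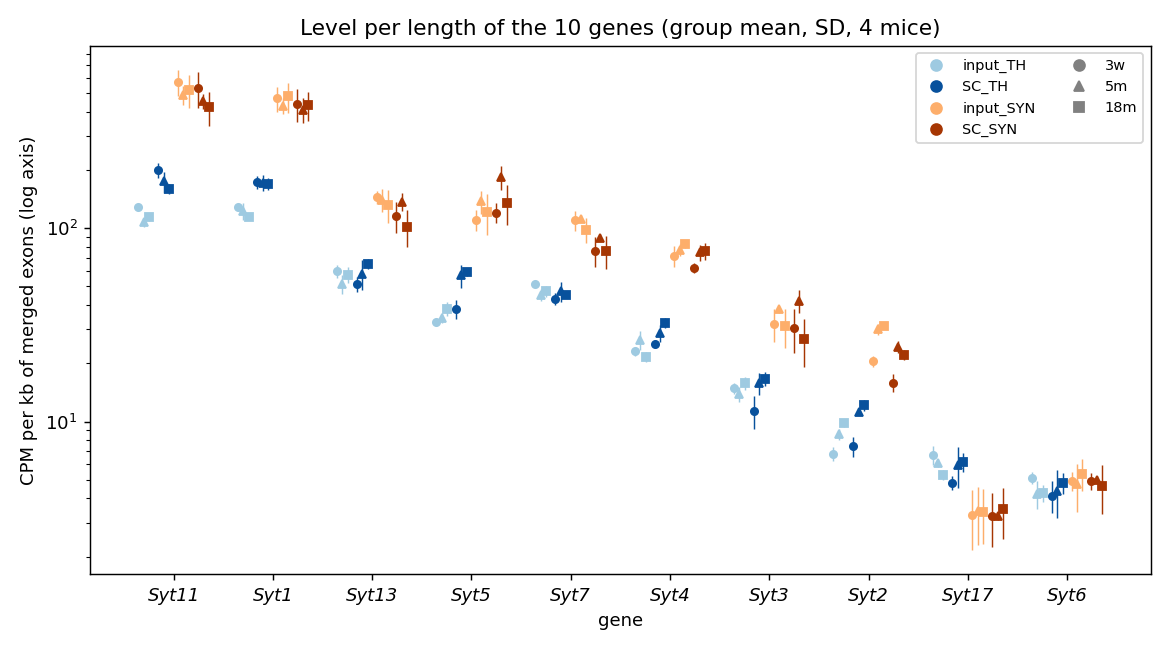
Mean level of each gene in CPM per kb of merged exons (log axis) in the 4 fractions (colours) and 3 ages (symbols), with SD over 4 mice as bars. Syt11 and Syt1 lie above the other 8 genes in every group, and Syt17 and Syt6 lie lowest.

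The first comparison asked whether the compartment of origin changed the share of synaptotagmin RNA among ribosome-associated RNA (SC_SYN against SC_TH). Before the cushion only TH lysates are described as cleared by a spin, so compartment and this step cannot be told apart here. At each of the 3 ages 8 of 10 members were higher in SC_SYN, Syt17 was lower, and Syt6 did not pass the test. Many genes differed in this comparison: 63.5%, 67.8% and 62.1% of all genes tested were called at the 3 ages in order, in about equal numbers up and down. The count of members is therefore read with their sizes. Their median log2 fold change was 1.28, 1.30 and 0.87 at the 3 ages, against -0.04, -0.09 and -0.07 over all genes tested. The calls come from edgeR's quasi-likelihood test with Benjamini-Hochberg adjustment over all genes, as do all adjusted p-values that follow.

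Of the fast vesicle sensors, Syt1 at 5 months stood at 1413, 1510, 1556 and 1245 CPM in SC_TH and at 2760, 3538, 3433 and 3951 CPM in SC_SYN. All 4 synaptosome values lay above all 4 homogenate values, a log2 fold change of 1.31 ± 0.14 (SE, edgeR adjusted p = 5.89e-09). Syt5, with 148.1, 110.4, 133.9 and 150.2 CPM in SC_TH and 514.8, 377.6, 458.2 and 397.9 CPM in SC_SYN, had the largest fold change of the family at 3 weeks and 5 months, 1.70 ± 0.14 and 1.74 ± 0.13. Syt2 was 1.14 ± 0.10, 1.16 ± 0.09 and 0.92 ± 0.09 higher on the log2 scale at the 3 ages (edgeR adjusted p = 1.67e-10, 6.35e-11 and 5.69e-09). Of the calcium-independent members, Syt11 had 803.8, 1008, 1004 and 815.7 CPM in SC_TH against 2421, 2225, 2183 and 2656 CPM in SC_SYN at 5 months, again without overlap, and its log2 fold change of 1.44 to 1.47 was nearly the same at all ages. Syt4 followed with 1.35, 1.44 and 1.30.

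Members of the higher-affinity group were less alike. Syt3 was 1.46 ± 0.18, 1.47 ± 0.18 and 0.75 ± 0.17 higher in SC_SYN from youngest to oldest, and Syt7 was 0.87 ± 0.12, 0.98 ± 0.12 and 0.81 ± 0.12 higher. Syt6 differed by 0.29 ± 0.18, 0.24 ± 0.17 and 0.03 ± 0.17 (edgeR adjusted p = 0.177, 0.221 and 0.901). Syt13 was 1.22, 1.29 and 0.70 higher at the 3 ages. Syt17 went the other way: at 5 months it stood at 39.8, 24.2, 25.3 and 34.8 CPM in SC_TH and at 15.7, 17.2, 17.8 and 16.9 CPM in SC_SYN. These values did not overlap, and Syt17 was lower at each age, by log2 fold changes of -0.53 ± 0.20, -0.82 ± 0.18 and -0.71 ± 0.18 (edgeR adjusted p = 0.0206, 0.000313 and 0.00134).

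**Figure D2:**
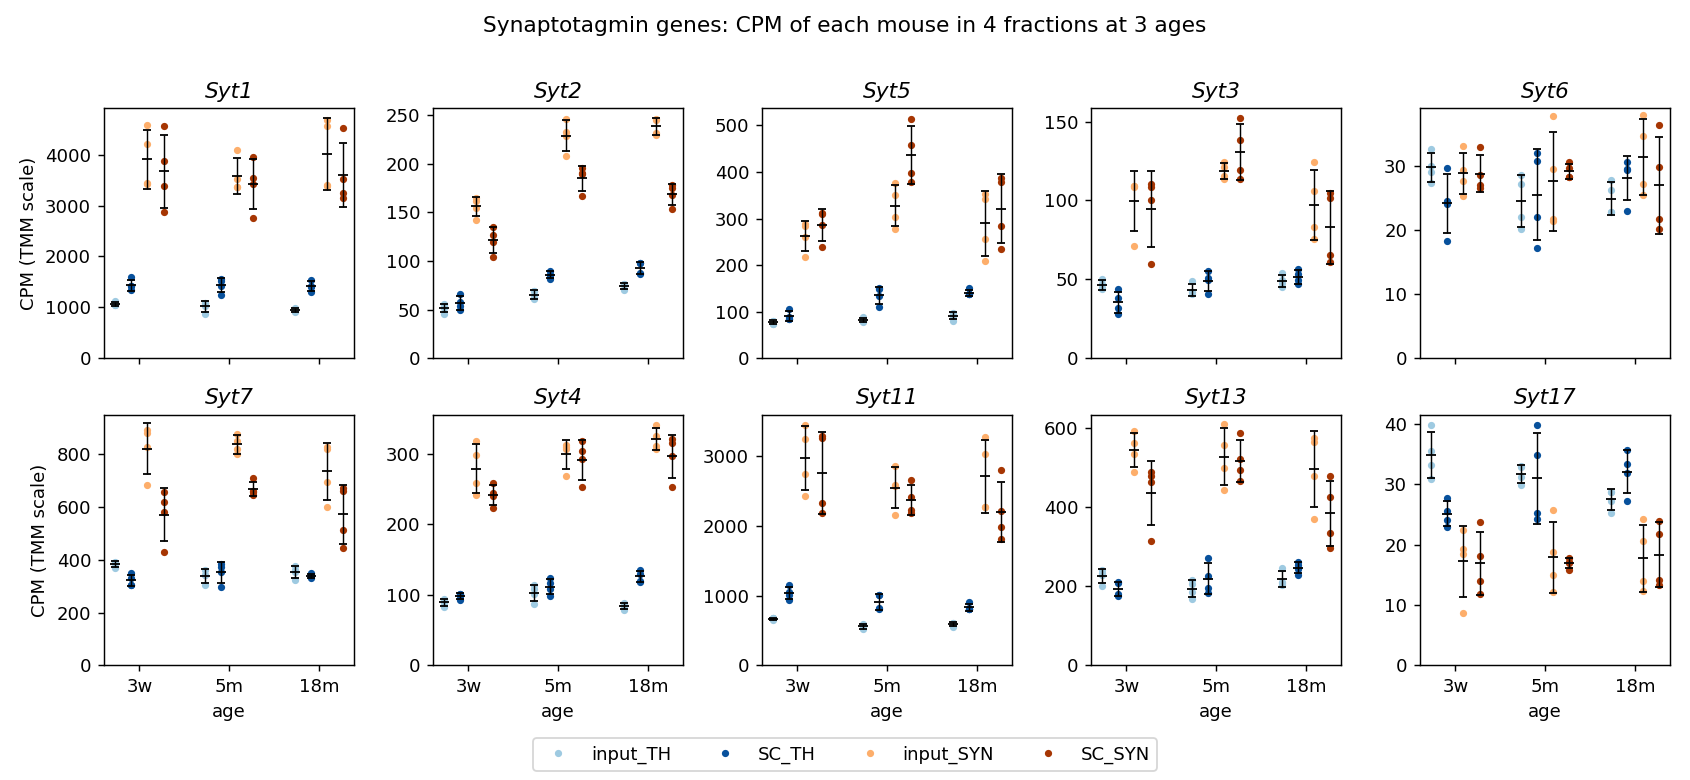
CPM on one TMM scale for each mouse (points) in the 4 fractions (colours) at 3 ages, 1 panel per gene with its own axis from 0; black bars are the mean and SD of 4 mice. Synaptosome points lie above homogenate points for 8 genes, mix with them for Syt6, and lie mostly lower for Syt17.

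The input RNA gave the same question before the cushion. In input_SYN against input_TH, 9, 10 and 10 members were called from youngest to oldest, 8, 9 and 9 of them higher and Syt17 lower, where 71%, 72.7% and 72.3% of all genes were called. Median log2 fold changes of the members were 1.56, 1.66 and 1.54, and those of all genes were -0.18, -0.18 and -0.12. Syt11 had the largest difference at each age, at 2.28 ± 0.11, 2.35 ± 0.11 and 2.29 ± 0.11, about 5-fold (5.08-fold at 5 months). Syt1 was 2.00, 1.97 and 2.17 higher, Syt5 1.89, 2.15 and 1.78, Syt2 1.72, 1.96 and 1.77, and Syt4 1.77, 1.70 and 2.03. Syt17 was lower by log2 fold changes of -0.81 ± 0.20, -0.65 ± 0.20 and -0.47 ± 0.18. Syt6 was at 0.11 ± 0.16 (not called), 0.35 ± 0.16 and 0.46 ± 0.14.

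The scale matters for these compartment contrasts. Scaling by library size in place of TMM moved the median of all genes by -0.53 to -0.65, and the share of called genes that were higher in SC_SYN fell from 49%, 47.28% and 48.19% to 25.35%, 23.38% and 20.49% at the 3 ages (in input from 44.6%, 44.85% and 45.53% to 24.61%, 23.8% and 23.79%). Under it Syt6 changed sign at all ages in SC and input, whereas the other 9 members kept their direction. Of the cell markers, all 5 of the astrocyte list were also higher in SC_SYN at each age (median log2 fold change 1.54, 1.5 and 1.43), as were all 4 oligodendrocyte markers (1.42, 1.02 and 0.85), both markers of their precursors (1.54, 1.5 and 1.16), 4, 5 and 5 of 5 microglial markers (0.92, 1.36 and 1.25) and 4, 4 and 3 of 5 striatal markers (1.07, 1.07 and 0.80). Of the neuronal markers 2 of 5 were higher and 3 lower, and of 7 cortical layer markers 0, 1 and 2 were higher and 5 lower at each age. The endothelial, erythrocyte and nuclear lists had medians of -3.58 to -2.54. Their part in the members' differences was not tested.

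Relatives and partners of the family did not share one direction. Of 20 other synaptotagmins and C2 domain proteins, 16 were tested in SC_SYN against SC_TH, and 7, 9 and 8 were higher and 1, 1 and 2 lower at the 3 ages, with medians of 0.67, 0.58 and 0.47. The highest at 5 months by adjusted p were Syt12 (1.43 ± 0.12), the membrane contact protein Esyt1 (1.27 ± 0.12) and Syt16 (0.82 ± 0.10), and Sytl2, a Rab27 effector, was lower (-0.86 ± 0.14). Of 27 vesicle fusion partners, all of them tested, 6, 5 and 7 were higher and 10, 16 and 14 lower, with medians of -0.19, -0.28 and -0.21. The synaptic vesicle glycoproteins Sv2a, Sv2b and Sv2c, of which Sv2a binds Syt1, were higher at 5 months by 1.57, 1.41 and 1.09. The priming factor Unc13b, the syntaxin binding protein Stxbp5 and the ATPase Nsf, which disassembles SNARE complexes, were lower by log2 fold changes of -1.25, -1.09 and -0.94.

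**Figure D3:**
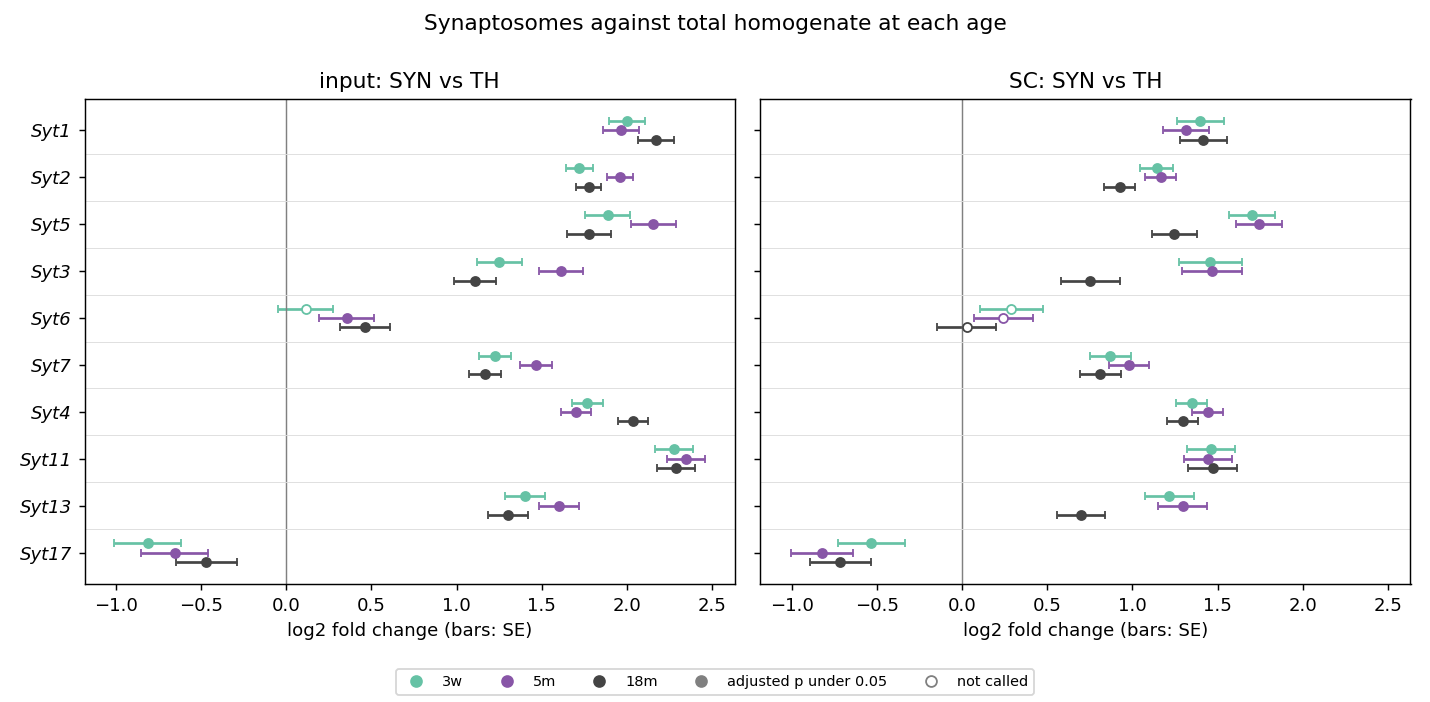
Log2 fold change of SYN against TH with SE for each gene in input RNA (left) and ribosome-associated RNA (right) at 3 ages (colours); filled points have an adjusted p under 0.05. In the SC panel 8 genes lie between 0.70 and 1.74, Syt6 lies near 0 and Syt17 lies below 0.

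The second comparison set ribosome-associated RNA against input RNA of the same compartment. In TH, 6 members were called at 3 weeks (5 higher and Syt17 lower), and 7 were higher at both 5 and 18 months; 52.8%, 62.1% and 64% of all genes were called. Syt1, Syt2, Syt4, Syt5 and Syt11 were higher in SC_TH at every age. Syt11 was 0.75, 0.79 and 0.54 higher on the log2 scale, Syt1 0.55, 0.57 and 0.62, Syt5 0.35, 0.81 and 0.68, Syt2 0.26, 0.48 and 0.36, and Syt4 0.26, 0.20 and 0.63. Syt13 was higher at 5 and 18 months (0.26 and 0.24), Syt3 at 5 months (0.27), and Syt17 went from -0.34 at 3 weeks to 0.28 at 18 months. Members' medians were 0.08, 0.27 and 0.32, those of all genes -0.05, -0.05 and -0.01. With the mouse as a block Syt3 was also called at 3 weeks, as lower in SC_TH (-0.27, edgeR adjusted p = 0.0367, against -0.25 and 0.0504 without the block). At 3 weeks 3 members were called without mouse 188. All 5 neuronal and all 5 astrocyte markers were also higher in SC_TH than in input_TH at each age (neuronal medians 0.53, 0.80 and 0.61), and their part was not tested.

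In SYN the pattern was another one. Only 2 members were called at each age, both lower in SC_SYN than in input_SYN, where 18.5%, 20% and 12.6% of all genes were called. Syt2 had 208.4, 246.6, 233.0 and 228.5 CPM in input_SYN and 189.1, 190.3, 166.5 and 195.5 CPM in SC_SYN at 5 months. The 2 sets did not overlap, and Syt2 was lower at the 3 ages by log2 fold changes of -0.40 ± 0.09, -0.37 ± 0.09 and -0.53 ± 0.09 (edgeR adjusted p = 0.00401, 0.00557 and 0.000393). Syt7, at 801.3, 820.1, 851.3 and 879.3 CPM in input_SYN and 648.0, 660.5, 709.5 and 656.6 CPM in SC_SYN at 5 months, did not overlap either and was lower by -0.56 ± 0.13, -0.39 ± 0.13 and -0.39 ± 0.13 (edgeR adjusted p = 0.00364, 0.0351 and 0.0464). At 5 months the count was 0 without mouse 193 and 1 without mouse 191, 192 or 194, and at 18 months it fell to 1 without mouse 191, 192, 193, 194, 195 or 196. Syt5 was the member with the highest values in this comparison (0.09, 0.36 and 0.12), none of which passed.

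Whether the step from input to ribosome-associated RNA differed between compartments was tested directly in 1 fit of all 48 libraries, a test added after these values were seen. The methods describe a syringe step and a clearing spin before the cushion for TH lysates only. Compartment and this handling therefore cannot be told apart in the test. A negative value means that a gene rose less, or fell more, from input to SC in SYN than in TH. All members called in it were negative: 4 at 3 weeks, 4 at 5 months and 6 at 18 months, where 17.7%, 23% and 24.7% of all genes were called, and members' medians were -0.32, -0.37 and -0.59 against -0.03, 0.00 and -0.01 for all genes. Syt1, Syt2 and Syt11 were called at every age. Syt11 was at -0.86 ± 0.19, -0.92 ± 0.19 and -0.85 ± 0.19 (edgeR adjusted p = 0.00096, 0.000252 and 0.000699), Syt2 at -0.62 ± 0.13, -0.81 ± 0.12 and -0.87 ± 0.12 (0.000421, 2.29e-06 and 5.77e-07), and Syt1 at -0.64 ± 0.18, -0.67 ± 0.18 and -0.78 ± 0.18 (0.00948, 0.00515 and 0.0011). Syt4 passed at 3 weeks and 18 months (-0.46 and -0.76), Syt7 at 5 months (-0.50), and Syt5 and Syt13 at 18 months (-0.55 and -0.62). For Syt3, Syt6 and Syt17 no age passed, with values from -0.44 to 0.24. With the mouse as a block Syt7 was also called at 3 weeks (-0.41, adjusted p = 0.0473), and the count was 2 without mouse 189 at 3 weeks and without mouse 191 at 5 months.

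Fusion partners were also compared. In TH, 17, 18 and 19 of 27 were higher and 1, 3 and 5 lower in SC than in input at the 3 ages, whereas in SYN 2, 0 and 0 were higher and 0, 1 and 1 lower. In the direct test of the compartments, of 27 tested, 0, 1 and 1 were higher and 11, 13 and 16 lower at the 3 ages, with medians of -0.28, -0.33 and -0.44. The complexin Cplx1 was among those with the smallest adjusted p at 5 months (-0.84 ± 0.10), while Unc13b was higher (0.46 ± 0.15). Of 18 other synaptotagmins and C2 domain proteins, 1, 1 and 0 were higher and 3, 4 and 5 lower. Rph3a, a vesicle-bound Rab3 effector, Syt16 and Syt10 were lower at 5 months (-0.69, -0.67 and -1.01), and Esyt1 was higher (1.00). Nuclear RNA moved with both steps: its 4 markers were all lower in SC_TH than in input_TH at each age (medians -0.79, -1.21 and -1.72), and 3, 3 and 0 of 4 were lower in SC_SYN than in input_SYN (medians -1.05, -0.90 and -0.45). Its part in the members' values was not tested.

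**Figure D4:**
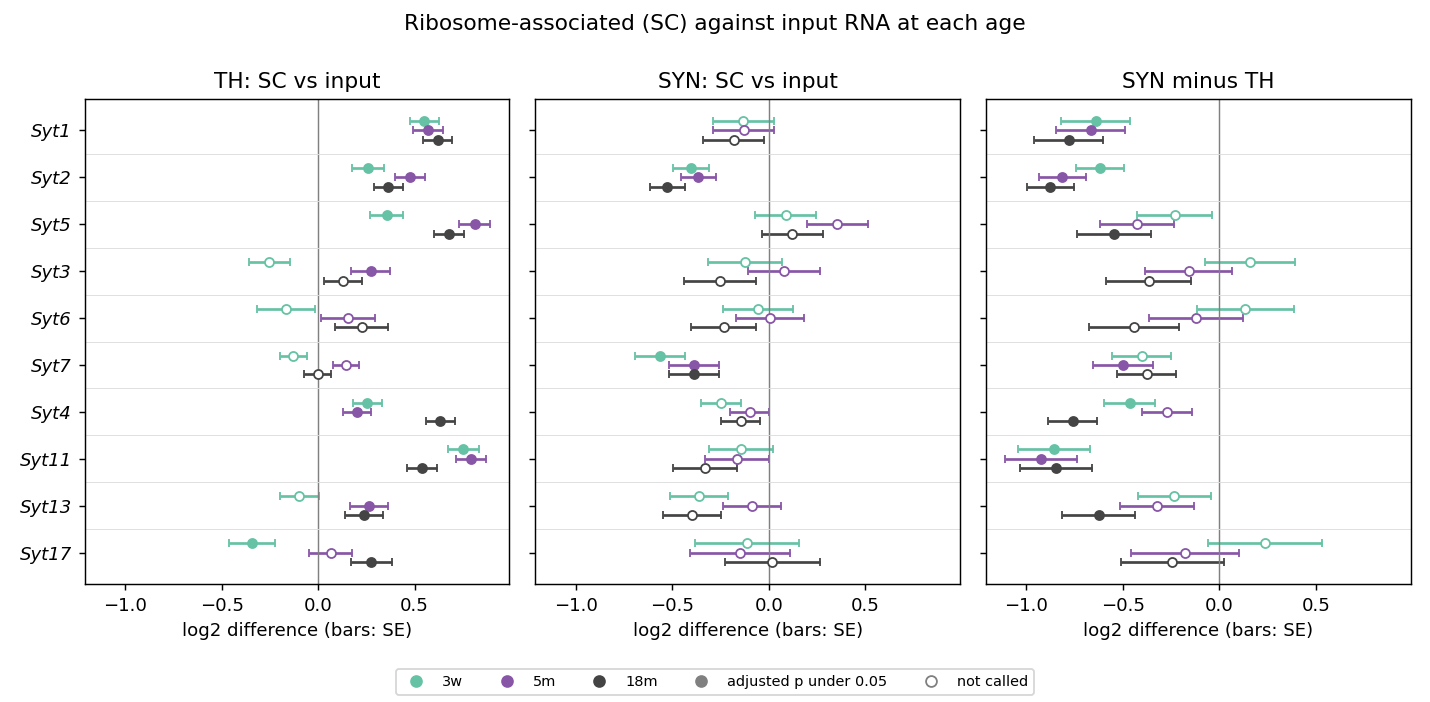
Log2 difference with SE between ribosome-associated and input RNA for each gene in TH (left) and SYN (middle), and SYN minus TH of that difference (right), at 3 ages (colours); filled points have an adjusted p under 0.05. At all ages Syt1, Syt2, Syt4, Syt5 and Syt11 are filled above 0 in TH, and Syt2 and Syt7 are filled below 0 in SYN. Syt1, Syt4, Syt11 and Syt13 also lie below 0 in SYN at all ages but are not filled. In the right panel Syt1, Syt2 and Syt11 are filled below 0 at all ages. Syt4, Syt5, Syt7 and Syt13 also lie below 0 there at all ages and are filled at some.

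The third comparison was age within each fraction, where Syt2 was the one member called in every fraction in the first step. Between 3 weeks and 5 months 3 members were called in input_TH, 3 in SC_TH, 1 in input_SYN and 2 in SC_SYN, against 11.8%, 17.9%, 3.22% and 8.05% of all genes. Members' medians were -0.12, 0.16, 0.01 and 0.21, and those of all genes were 0.01, 0.01, 0.00 and -0.01. Oligodendrocyte RNA moved with this age step in each fraction: all 4 markers (Mbp, Mog, Mag and Mobp) were lower at 5 months, with medians of -1.25 in input_TH, -1.0 in SC_TH, -1.22 in input_SYN and -1.24 in SC_SYN, and their summed level in input_SYN ranged from 3070 to 4312 CPM at 3 weeks and from 1604 to 1790 CPM at 5 months. Other lists moved in single fractions. Of 5 microglial markers 2 were higher in input_SYN and 3 in SC_SYN (medians 0.61 and 0.74), 3 of 5 astrocyte markers were lower in input_TH (-0.21) and 2 in SC_TH (-0.07), and 2 of 4 nuclear RNAs were lower in SC_TH (-0.37). Both erythrocyte markers were lower in input_TH and SC_TH (-1.06 and -0.78), and 3 of 7 cortical layer markers were higher in SC_TH (0.16). The part of these lists in the members' changes was not tested.

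Syt2 rose from 3 weeks to 5 months in all 4 fractions. In input_TH its values were 45.8, 54.0, 55.8 and 52.0 CPM at 3 weeks and 60.7, 62.9, 69.2 and 69.0 CPM at 5 months. In SC_SYN they were 104.1, 127.0, 135.1 and 119.9 CPM and then 189.1, 190.3, 166.5 and 195.5 CPM. The ages did not overlap in any fraction, and the log2 fold change was 0.33 ± 0.06 in input_TH, 0.57 ± 0.09 in SC_TH, 0.54 ± 0.09 in input_SYN and 0.58 ± 0.11 in SC_SYN (edgeR adjusted p = 0.00255, 0.000458, 0.00223 and 0.00583). Each of the 4 calls held without any single mouse and under the alternative settings tried. The parvalbumin gene Pvalb averaged 27.4 CPM at 3 weeks and 28.9 CPM at 5 months in input_TH, and 23.4 and 23.0 CPM in SC_SYN. Of 6 interneuron markers (Gad1, Gad2, Slc32a1, Pvalb, Sst and Vip), 3 were higher at 5 months in SC_TH and none passed in the other 3 fractions. Their summed level at 3 weeks and 5 months averaged 481.5 and 491.2 CPM in input_TH and 522 and 694.4 CPM in SC_TH. In input_SYN it averaged 686.3 and 789.1 CPM, and in SC_SYN 784.9 and 1030 CPM. The part of these markers in the rise of Syt2 was not tested.

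Syt5 rose in the ribosome-associated fractions. In SC_TH its values were 89.7, 83.9, 105.6 and 84.4 CPM at 3 weeks and 148.1, 110.4, 133.9 and 150.2 CPM at 5 months, and in SC_SYN they were 311.4, 239.0, 286.7 and 310.4 CPM and then 514.8, 377.6, 458.2 and 397.9 CPM. Neither pair of ages overlapped. The log2 fold change was 0.55 ± 0.09 in SC_TH (edgeR adjusted p = 0.000878) and 0.58 ± 0.16 in SC_SYN (edgeR adjusted p = 0.0369, up to 0.107 when 1 of mice 188, 189, 190, 191, 193 and 194 was left out). The SC_TH libraries held 3058278 to 7119395 counts at 3 weeks and 5992223 to 13484631 at 5 months. In SC_TH the highest Syt5 value at 3 weeks (105.6 CPM) was in the deepest library of that age. The lowest at 5 months (110.4 CPM) was in the shallowest. The SC_SYN libraries held 5415274 to 6132944 counts at 3 weeks and 8328535 to 14557582 at 5 months. The part of depth was not tested in either fraction. In input the log2 fold change was 0.07 ± 0.06 (TH) and 0.31 ± 0.15 (SYN), neither of which passed. The difference between the SC_SYN and input_SYN changes was itself tested and was 0.27 ± 0.22, which did not pass. The difference between the SC_TH and input_TH changes was 0.46 ± 0.12 (edgeR adjusted p = 0.0353), 1 member of 10 where 2.33% of all genes were called. That call was lost when the trend with GC content and length was removed (edgeR adjusted p from 0.00253 to 0.395 over all alternatives), in the fit of all 48 libraries, and without mouse 187, 188, 190, 191, 194 or 197.

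Syt3 also rose in SC_TH, from 32.2, 28.1, 43.7 and 38.0 CPM to 50.7, 40.7, 49.6 and 55.5 CPM. One mouse of each age overlapped, the log2 fold change was 0.44 ± 0.12 (edgeR adjusted p = 0.0196), and the call was lost without mouse 187, 188 or 194, in the fit of all 48 libraries and with the GC and length trend removed. The highest Syt3 value at 3 weeks (43.7 CPM) was in the deepest SC_TH library of that age. The lowest at 5 months (40.7 CPM) was in the shallowest, and the part of depth in the change of Syt3 was not tested. With the mouse as a block, its SC_TH change exceeded its input_TH change by 0.54 ± 0.14 (edgeR adjusted p = 0.0417, against 0.0518 without the block). In SC_SYN it stood at 110.5, 59.5, 100.2 and 108.5 CPM at 3 weeks and 152.2, 113.5, 138.5 and 119.3 CPM at 5 months, which did not overlap but did not pass (0.44 ± 0.20, edgeR adjusted p = 0.189).

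In input_TH 2 members fell over the same step. Syt11 went from 674.9, 677.5, 675.4 and 649.5 CPM to 514.5, 571.5, 589.3 and 553.5 CPM, without overlap (-0.27 ± 0.05, edgeR adjusted p = 0.00145, up to 0.352 in the fit of all 48 libraries). Its values were similar in SC_TH, input_SYN and SC_SYN (-0.21 ± 0.09, -0.23 ± 0.14 and -0.25 ± 0.17) but did not pass there. Syt7 fell by 0.19 on the log2 scale (edgeR adjusted p = 0.0347, lost without mouse 188, 189, 190, 191, 192 or 194, in the fit of all 48 libraries, with the GC and length trend removed and with library size scaling). In SC_TH, input_SYN and SC_SYN Syt7 had the opposite sign (0.10 ± 0.08, 0.02 ± 0.11 and 0.20 ± 0.15), without a call. Syt1, the most abundant sensor, was at -0.13 to -0.03 in the 4 fractions, and none of these values passed. Syt4 stood at 0.09 to 0.24, Syt6 at -0.28 to 0.06, Syt13 at -0.22 to 0.22 and Syt17 at -0.14 to 0.29, without a call.

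Relatives and partners moved in both directions over this step. Of the other synaptotagmins and C2 domain proteins, 3 were higher and 2 lower among 17 tested in input_TH, 1 and 2 among 14 in SC_TH, 1 and 0 among 12 in input_SYN, and 1 and 1 among 13 in SC_SYN. Esyt1, which tethers the endoplasmic reticulum to the plasma membrane, was higher in all 4 fractions (0.79, 0.40, 1.11 and 0.84), and Sytl2 was lower in both TH fractions (-0.75 and -0.62). Of the 27 fusion partners, 2 were higher and 3 lower in input_TH, 4 and 4 in SC_TH, 0 and 2 in input_SYN, and 0 and 3 in SC_SYN. The syntaxin Stx1a, a plasma membrane SNARE, was lower in all 4 fractions (-0.50, -0.50, -0.54 and -0.68), as was the vesicle SNARE Vamp3 (-0.35, -0.69, -0.84 and -0.75).

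Promoter windows are shown for members whose level changed with age, although the count per gene does not tell which start was used. On GRCm38, Syt2 spans chr1:134646677-134762593 on the plus strand, Syt3 chr7:44384102-44400187 on the plus strand, Syt5 chr7:4539765-4547541 on the minus strand and Syt11 chr3:88744700-88775164 on the minus strand. RefSeq promoter windows (GRCm38.p6, 250 bases before to 50 bases after a start) were matched for 5 of 10 members, 9 windows in all. The 4 windows below belong to Syt2, which rose with age in every fraction, Syt3, which rose in SC_TH, and Syt11, which fell in input_TH, and capitals mark the GC box GGGCGG on either strand.
Syt2, upstream start, chr1:134646362-134646661, plus strand: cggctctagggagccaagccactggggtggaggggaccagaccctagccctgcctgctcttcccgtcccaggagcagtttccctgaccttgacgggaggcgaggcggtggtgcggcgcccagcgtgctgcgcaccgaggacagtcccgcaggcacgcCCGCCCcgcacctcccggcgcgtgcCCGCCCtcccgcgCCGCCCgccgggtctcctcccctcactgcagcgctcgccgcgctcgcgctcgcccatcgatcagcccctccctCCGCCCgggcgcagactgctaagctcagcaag
Syt2, downstream start, chr1:134709050-134709349, plus strand: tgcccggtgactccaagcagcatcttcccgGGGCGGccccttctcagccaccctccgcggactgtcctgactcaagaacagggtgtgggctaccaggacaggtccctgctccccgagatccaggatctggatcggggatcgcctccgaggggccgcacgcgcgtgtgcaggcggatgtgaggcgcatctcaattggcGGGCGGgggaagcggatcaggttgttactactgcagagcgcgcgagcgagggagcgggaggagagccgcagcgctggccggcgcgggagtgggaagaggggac
Syt3, chr7:44383876-44384175, plus strand: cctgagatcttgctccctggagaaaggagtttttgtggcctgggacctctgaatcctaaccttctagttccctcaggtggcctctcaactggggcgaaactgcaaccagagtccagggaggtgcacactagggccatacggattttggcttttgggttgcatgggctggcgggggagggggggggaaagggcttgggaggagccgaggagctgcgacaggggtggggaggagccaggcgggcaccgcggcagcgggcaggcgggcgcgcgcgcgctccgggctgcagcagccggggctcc
Syt11, chr3:88772550-88772849, minus strand: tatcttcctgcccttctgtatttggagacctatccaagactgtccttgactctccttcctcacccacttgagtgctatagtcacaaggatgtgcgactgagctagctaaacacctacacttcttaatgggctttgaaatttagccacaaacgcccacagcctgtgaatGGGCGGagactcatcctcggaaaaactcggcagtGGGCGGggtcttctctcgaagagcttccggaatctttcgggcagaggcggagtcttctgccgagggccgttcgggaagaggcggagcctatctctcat

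The Syt2 windows hold 4 and 2 GC boxes and are 74.3% and 68.3% G and C, the Syt3 window holds 0 at 66.3%, and the Syt11 window holds 2 at 53.0%. The motif was present in 7 of 9 member windows and in 35.7% of 32851 windows of the same length, whose median GC content was 52.7%. The 9 windows belong to only 5 genes, and 2 of those with the motif are overlapping windows of Syt6, so they are not independent. The TATA box TATAAA (13.6% of all windows) and the cyclic AMP response element TGACGTCA (1.79%) were found in none of the 9. The E-box CACGTG (7.15%) was found in 2, which are overlapping windows of Syt6. No motif is contained in another of the 4, and a match is a match of letters only.

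From 5 months to 18 months fewer changes were called in SC_TH, input_SYN and SC_SYN, but not in input_TH. In input_TH 3 members passed, where 15.5% of all genes were called: Syt2 (0.22 ± 0.06, edgeR adjusted p = 0.0253) and Syt5 (0.19 ± 0.06, edgeR adjusted p = 0.0446) were higher and Syt4 was lower (-0.26 ± 0.07, edgeR adjusted p = 0.0164). The 3 calls were lost together when the GC and length trend was removed and without mouse 192, 196 or 198, whereas 5 members were called without mouse 195. Of the interneuron markers 4 of 6 were higher in the same comparison, and Pvalb averaged 28.9 CPM at 5 months and 38.3 CPM at 18 months. Their part was not tested. No member passed in SC_TH (2.17% of all genes called, edgeR), input_SYN (0.139%) or SC_SYN (0.014%). At an unadjusted p under 0.05 there was 1 member in SC_TH (Syt4), 0 in input_SYN and 3 in SC_SYN. Of all genes tested, 2878 of 16427, 1214 of 12975 and 2474 of 14240 passed that threshold in these fractions. The 3 members in SC_SYN were Syt3 at -0.64 ± 0.20, Syt5 at -0.43 ± 0.16 and Syt13 at -0.42 ± 0.16 (edgeR adjusted p = 0.191, 0.218 and 0.23). In SC_SYN at 18 months Syt3 stood at 65.4, 101.3, 104.7 and 61.0 CPM, all below the 152.2, 113.5, 138.5 and 119.3 CPM of the 5 month mice. The 4 libraries of that group differed in depth, and the 2 shallower ones, mice 195 and 198, held the lower values of Syt3, Syt5 and Syt13. Syt1 went the other way, with 3513 and 4524 CPM in mice 195 and 198 against 3250 and 3153 CPM in mice 196 and 197. So did Syt11 (2207 and 2808 CPM against 1978 and 1817 CPM). Syt5 stood at 234.9 and 284.0 CPM in mice 195 and 198. In mice 196 and 197 it stood at 387.5 and 379.3 CPM, within the 377.6 to 514.8 CPM of the 5 month mice. Syt13 stood at 334.2 and 296.0 CPM against 477.1 and 425.9 CPM, with 464.5 to 587.2 CPM at 5 months. Their totals were 6268207 and 5341263 counts against 18590040 and 15306804, and the part of depth was not tested. DESeq2 called no member in these 3 comparisons, and 1 fit of all 48 libraries called those 3 in SC_SYN.

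**Figure D5:**
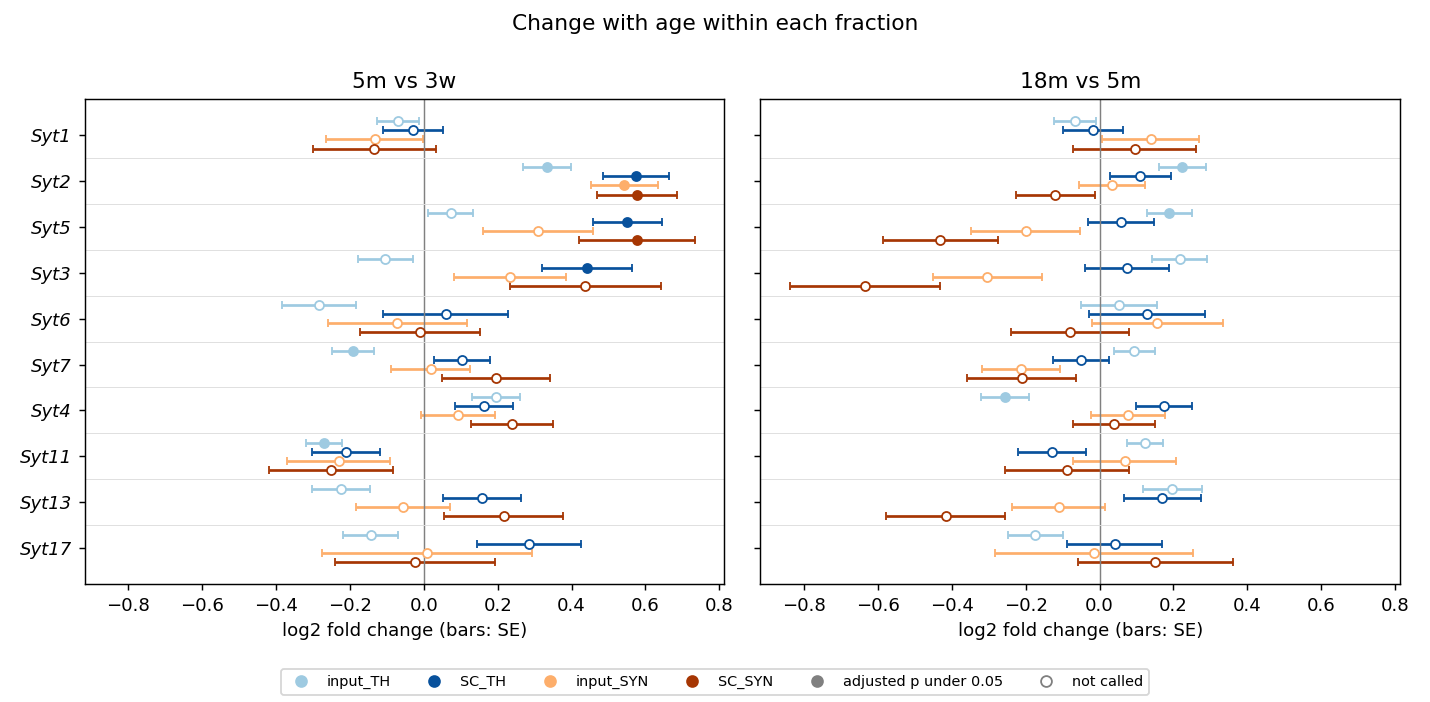
Log2 fold change with SE of each gene from 3 weeks to 5 months (left) and from 5 months to 18 months (right) in the 4 fractions (colours); filled points have an adjusted p under 0.05. Syt2 is filled in all 4 fractions on the left, and filled points on the right belong to input_TH alone (Syt2, Syt4 and Syt5).

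Differences between fractions in these age changes were tested as interactions. For SC_SYN minus SC_TH no member was called by edgeR or DESeq2 in either step (0.0301% and 0% of all genes called by edgeR, and in the later step 2855 genes at an unadjusted p under 0.05), and at 18 months against 5 months Syt3 (-0.71 ± 0.24), Syt13 (-0.60 ± 0.20) and Syt5 (-0.50 ± 0.19) had an unadjusted p under 0.05 (edgeR adjusted p = 0.174, 0.172 and 0.195). For input_SYN minus input_TH no member was called either (0.0224% and 2.42% of all genes). In the later step Syt3 (-0.504), Syt4 (0.335), Syt5 (-0.379) and Syt7 (-0.300) had an unadjusted p under 0.05, as did 3168 of 17860 genes. Their edgeR adjusted p-values were 0.122, 0.134, 0.263 and 0.23. With the mouse as a block Syt3 was called in the later step (-0.54 ± 0.15, edgeR adjusted p = 0.0442, against 0.122 without the block). In input_SYN at 18 months Syt3 stood at 83.1 and 75.6 CPM in mice 195 and 197 (5018772 and 2843173 counts). It stood at 106 and 124.2 CPM in mice 196 and 198 (6562860 and 7879536 counts). At 5 months it stood at 113.4 to 124.6 CPM (2613680 to 3840102 counts), and the part of depth was not tested. For SC_TH minus input_TH in the later step, the change of Syt4 was higher in SC_TH than in input_TH by 0.43 ± 0.10, with opposite signs in the 2 fractions, of which the fall in input_TH was called (edgeR adjusted p = 0.0308, 1.78% of all genes called): it went from 87.6, 114.6, 108.4 and 101.8 to 89.0, 81.3, 87.7 and 78.9 CPM in input_TH and from 123.6, 109.0, 116.9 and 97.7 to 118.9, 135.7, 130.2 and 119.7 CPM in SC_TH. The ages overlapped in both fractions. That call was lost without mouse 192, 193, 194, 196, 197 or 198 and with the GC and length trend removed. For SC_SYN minus input_SYN neither the members nor any other gene was called by edgeR or DESeq2 (0% and 0% of all genes, with 473 and 393 genes at an unadjusted p under 0.05). For the rise of Syt2 to 5 months no difference between fractions passed, with values of 0.02 ± 0.13 (SC_SYN minus SC_TH), 0.24 ± 0.11 (input_SYN minus input_TH), 0.22 ± 0.11 (SC_TH minus input_TH) and 0.04 ± 0.13 (SC_SYN minus input_SYN).

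Syt4, Syt6 and Syt7 share exon bases with an antisense gene, and strand was ignored in counting, so reads of the pairs cannot be told apart: Syt4 with Gm26658 over 566 bases, Syt6 with Atg4a-ps over 505 bases and Syt7 with Gm26859 over 384 bases. The other members counted here lie on GRCm38 at chr10:108497650-109010982 (Syt1, minus strand), chr3:103575231-103645569 (Syt6, plus strand), chr19:10389090-10453180 (Syt7, plus strand), chr2:92915098-92956058 (Syt13, plus strand) and chr7:118380717-118448222 (Syt17, minus strand).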

How the data were processed

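The deposited counts were whole reads per gene for 48526 genes in 48 libraries, not normalized. The authors prepared directional, rRNA-depleted libraries with UMI adaptors, sequenced them in 2 runs that the labels do not assign to libraries, converted reads with bcl2fastq 2.20.0.422, mapped them with TopHat2 2.1 to GRCm38 and counted with featureCounts, ignoring strand. Whether UMIs removed duplicates is not given in the sources used here. TH lysates were passed through a syringe and cleared by a spin before the cushion, steps that are not described for SYN lysates.

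Symbols and merged exon lengths came from GENCODE for GRCm38 (48144 identifiers matched). Counts were tested with edgeR 4.0.16 in R 4.3.3 (TMM, filterByExpr, glmQLFit, glmQLFTest, Benjamini-Hochberg, threshold 0.05). Age used the 12 libraries of a fraction, compartment and SC contrasts used 24, and the compartment difference of the SC step, chosen after seeing the data, used 48. Levels are CPM on 1 TMM scale over all libraries. Alternatives were DESeq2 1.42.0, other scalings and filters, removal of the GC and length trend (loess, span 0.5), other sets of libraries, a mouse block and leaving out each mouse. Library numbers name the mouse, so equal numbers pair libraries of 1 animal. Deviations of paired libraries from their group means correlated with medians of -0.053 to 0.185, and the reported fits carry no block. No replicate pair agreed within counting noise (chi-square per gene 1.89 to 29.5). Median totals were 10815833.5 (input_TH), 8643431 (SC_TH), 3756951 (input_SYN) and 7298371 counts (SC_SYN), and the number of mice and these depths limit precision. Scripts were tested on simulated data. The RefSeq promoters were of GRCm38.p6.

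The 10 members, the 2 pathway lists (20 and 27 genes) and the marker lists were chosen with earlier results of these data known. All members are named. Of each pathway list at most the 3 genes with the smallest adjusted p per direction and comparison are named with values, and for members that changed with age up to 3 genes with the most similar profile. Some genes of these lists are not reported here.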

Additional observations from a re-analysis of the deposited data

Results flagged for a closer look

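In 11 of 120 groups of 4 mice, 1 mouse stood apart, with a gap to its nearest neighbour that, as a share of the group's range (given first), exceeded Dixon's critical value, where chance gives about 6. In input_TH at 3 weeks these were Syt1 in mouse 190 (0.858, 1119 CPM against 1046 to 1057), Syt7 in mouse 187 (0.915, 369.5 against 388.7 to 390.4) and Syt11 in mouse 190 (0.91, 649.5 against 674.9 to 677.5). In input_TH at 18 months they were Syt2 in mouse 195 (0.83, 70.25 against 75.68 to 76.8) and Syt13 in mouse 196 (0.873, 246.6 against 203.6 to 209). In SC_TH at 18 months they were Syt5 in mouse 196 (0.994, 150.6 against 138), Syt6 in mouse 195 (0.832, 23.01 against 29.32 to 30.6) and Syt11 in mouse 195 (0.903, 906.2 against 801.5 to 811.7). In SYN they were Syt3 in mouse 189 in input_SYN at 3 weeks (0.979, 71.47 against 108.6 to 109.4), Syt4 in mouse 192 in input_SYN at 5 months (0.854, 268.2 against 307 to 313.6) and Syt13 in mouse 188 in SC_SYN at 3 weeks (0.855, 314.3 against 461.8 to 486.9).

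Some changes differed between groups by an edgeR test of the difference. From 3 weeks to 5 months, the log2 change of Syt5 was higher in SC_TH than in input_TH by 0.456. From 5 to 18 months that of Syt4 was higher by 0.432, with a fall in input_TH (-0.26) and a value of 0.17 in SC_TH that did not pass. The log2 step from input to SC was lower in SYN than in TH at 3 weeks for Syt1 (-0.641), Syt2 (-0.619), Syt4 (-0.465) and Syt11 (-0.857). At 5 months it was lower for Syt1 (-0.667), Syt2 (-0.814), Syt7 (-0.499) and Syt11 (-0.923). At 18 months it was lower for Syt1 (-0.781), Syt2 (-0.875), Syt4 (-0.761), Syt5 (-0.546), Syt11 (-0.848) and Syt13 (-0.624).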

How the results depend on the processing

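Of 110 member results that passed, 2235 of 2394 alternative values kept direction and call, 157 lost the call and 2 reversed. Of 200 that did not pass, 99 of 4316 values passed and 4 reversed. The cause of these moves was not tested. With 1 fit of all 48 libraries, the count of members called went from 3 to 1 in input_TH from 3 weeks to 5 months (5 with no filter on low counts), from 3 to 0 in input_TH from 5 to 18 months (also 0 with the GC and length trend removed), from 2 to 4 in SC_SYN from 3 weeks to 5 months, and from 0 to 3 in SC_SYN from 5 to 18 months. All genes called then numbered 761 against 2136, 183 (782 with the trend removed) against 2808, 3464 against 1146 and 1457 against 2. For SC_TH against input_TH at 5 months it went from 7 to 4 in that fit, with at least 10 counts in every library, and with library size in place of TMM. For SC_SYN against input_SYN it went from 2 to 1 with no filter at each age, and at 18 months also with at least 10 counts in every library and with library size. For SC_TH minus input_TH from 3 weeks to 5 months, where 1 member and 429 genes were called, 0 members were called in the 48-library fit, with the trend removed and with block and trend removal, 2 with at least 10 counts, DESeq2 size factors, no mitochondrial genes or the block, 3 with DESeq2 and 4 with no filter, and all genes called ranged from 0 to 1303. From 5 to 18 months it went from 1 to 0 in the 48-library fit, with the trend removed and with block and trend removal (16, 130 and 216 genes against 328). For the compartment difference of the SC step it went from 4 to 7 with block and trend removal at 3 weeks and 5 months, and with trend removal alone at 5 months. With the replicate block 4 calls were gained: Syt3 in SC_TH against input_TH at 3 weeks (-0.27, adjusted p = 0.0367), Syt3 in SC_TH minus input_TH to 5 months (0.54), Syt3 in input_SYN minus input_TH to 18 months (-0.54, a count of 1 against 0) and Syt7 in the SC step at 3 weeks (-0.41). It changed no other call. Leaving out 1 mouse gave counts of 0 to 5 in input_TH from 5 to 18 months, 1 to 2 in SC_SYN from 3 weeks to 5 months, 3 to 7 in SC_TH against input_TH at 3 weeks, 0 to 2 and 1 to 3 in SC_SYN against input_SYN at 5 and 18 months, 0 to 3 and 0 to 1 in SC_TH minus input_TH to 5 and 18 months, and 2 to 5 and 2 to 4 in the SC step at 3 weeks and 5 months. With library size, Syt6 in SYN against TH reversed to -0.506 (SC, 18 months), and -0.465, -0.304 and -0.115 (input, 3 ages). Syt7 in SC_TH against input_TH at 18 months went from -0.00 to 0.181 with the trend removed and 0.182 with block and trend removal. The order of levels changed in 1 of 12 groups when libraries were scaled by plain size. Library size in place of TMM also moved the share of called genes that were higher, from 40.31% to 59.21% and from 52.67% to 32.56% in input_TH to 5 and 18 months, from 50% to 39.18% in SC_SYN to 5 months, from 48.77% to 59.44% in SC_SYN against input_SYN at 3 weeks, from 43.12% to 22.78% and from 34.15% to 52.86% in SC_TH minus input_TH, from 41.67% to 67.9% in input_SYN minus input_TH to 18 months, and from 32.52% to 45.17% and 37.28% to 48.85% in the SC step at 3 weeks and 5 months.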

Other observations

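Among 10813 genes with a mean of at least 5 CPM, those whose log2 CPM over the 12 group means were most like a member that changed with age are given as a description. The 12 points come from the same libraries and share the difference between SYN and TH. For Syt2 they were Fads6 (Pearson r = 0.996), Kcnk13 (0.992) and Fam8a1 (0.991), and for Syt5 they were Emc10, Pcdh1 and Ctsb (each 0.997). For Syt11 they were Syp, which encodes the vesicle protein synaptophysin, Pcdh17 and Acvr1b (each 0.996). The closest were Glrb for Syt4 (0.994), Tex264 for Syt3 (0.994) and Orai2 for Syt7 (0.996).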
